A study of Mus musculus with 48 samples.

Results

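The entries described here are the mature mouse miRNAs numbered miR-297, miR-466, miR-467 and miR-669, which the label of the group places in an intron of Sfmbt2. They were chosen by name, with earlier results of these data known. Every name of an entry had to carry one of these 4 numbers, also where an entry joined several names that share reads. This gave 65 of the 1409 entries counted in small RNA libraries of C57BL/6 mice, and 15 of the 65 joined more than 1 name. Together they held 12548 of 26232559 counts, or 0.0478%. The study followed miRNAs outside and inside cells of the airway during an allergic airway response. It had 48 libraries, with 14 each of lavage fluid, lavage cell pellets and serum and 6 of lung epithelial brushings. Untreated mice received nothing. Immunized mice received 50 ug ovalbumin with alum into the peritoneum weekly for 3 to 4 weeks and then, from 7 days after the last injection, saline by oropharyngeal aspiration on 3 days. Allergic mice were immunized in the same way and received 50 ug ovalbumin by aspiration on those 3 days, and samples were taken on day 4. Each compartment with 14 libraries had 3 untreated, 4 immunized and 7 allergic ones. The brushings had 1, 2 and 3, each from 1 to 3 mice. The term non-allergic covers the untreated and the immunized libraries. The pellets are whatever cells 1 ml of lavage yielded after a spin at 500 g for 5 minutes, with no sort of cell types.

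Sfmbt2 encodes a Polycomb group protein. In the mouse the gene is imprinted, with expression from the paternal allele in the early embryo and in extraembryonic tissue, and its intron holds a very large, rodent-specific array of repeated miRNA genes that is known for its role in the placenta. A miRNA binds its targets mainly through the seed, the short stretch near its 5′ end. Near-identical copies in the array give near-identical mature miRNAs, so reads cannot always be given to a single gene.

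The annotation bore out the place for nearly all of the counts. Of 81 annotated miRNA genes with these numbers, 71 lay inside Sfmbt2 (GENCODE M21, GRCm38/mm10, chr2:10370510-10595253, plus strand). They spanned chr2:10466663-10518279, a stretch of 51.6 kb, all within 1 intron (chr2:10461473-10523944), and 0 overlapped an exon. The array held 29 miR-669 genes, 23 miR-466 genes, 14 miR-467 genes and 5 miR-297 genes. Neighbouring miR-467 genes began a median of 2.45 kb apart, against 2.42 kb for miR-466 and 2.42 kb for miR-669. The other 10 genes lay elsewhere. By gene, 56 entries came from Sfmbt2 alone and held 93.5% of the entries' counts, 4 could come from either place (5.68%), and 5 came from elsewhere alone (0.788%).

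**Figure D1:**
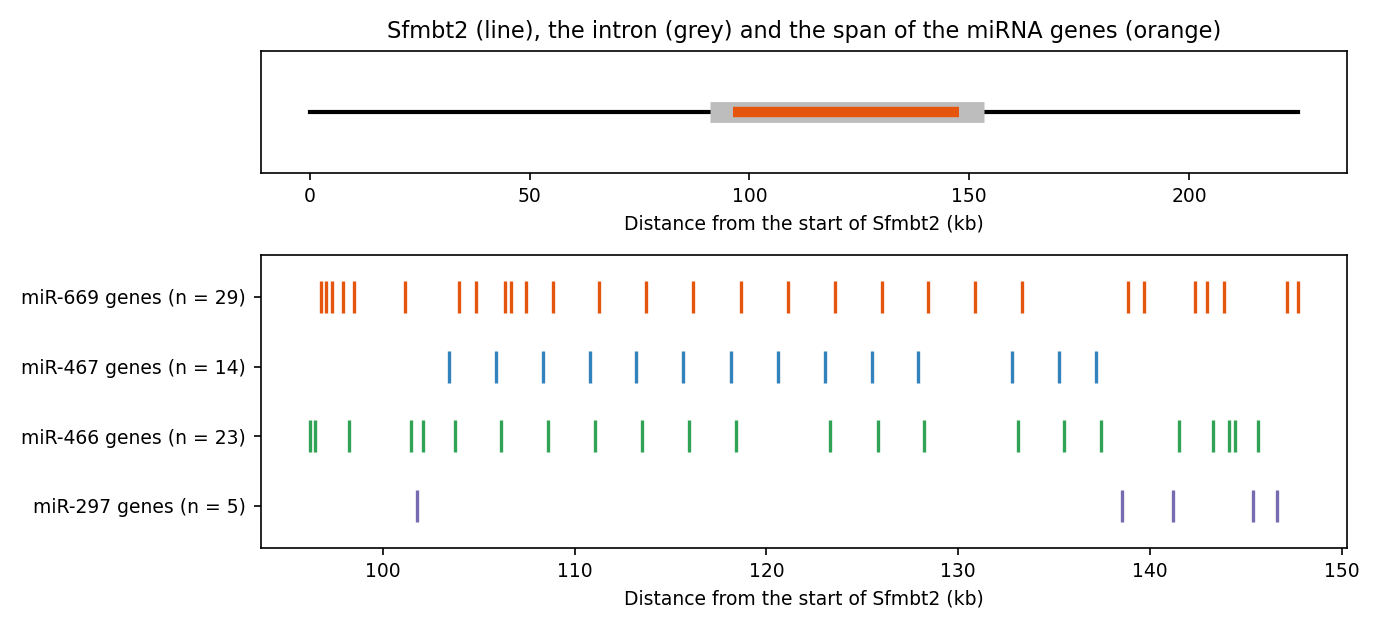
Map of the 71 miRNA genes inside Sfmbt2, as distance in kb from the start of the gene. The upper panel shows the gene as a line, the intron in grey and the span of the miRNA genes in orange, and each tick of the lower panel is 1 gene, in a row for each number. The genes fill 51.6 kb of the intron, with miR-466, miR-467 and miR-669 genes interleaved at median spacings of 2.42 to 2.45 kb.

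The 5 entries from elsewhere are the measured members with a mature sequence in the table used here (RefSeq, GRCm38.p6). They are shown because they carry the simple repeats typical of these numbers and because their 5 seeds, bases 2 to 8 in capitals, all differ although 4 of the entries are named miR-466.
miR-466q, chr3:28419988-28420007, plus strand: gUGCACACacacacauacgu
miR-466i-3p, chr13:17747552-17747573, plus strand: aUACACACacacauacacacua
miR-466k, chr3:85467396-85467418, plus strand: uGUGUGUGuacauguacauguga
miR-466j, chr10:60960802-60960824, plus strand: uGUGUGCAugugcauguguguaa
miR-669n, chr3:115979905-115979924, plus strand: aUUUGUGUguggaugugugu
The longest uninterrupted run of alternating A and C was 12 bases in miR-466q and 11 in miR-466i-3p. The longest run of alternating U and G was 9 bases in miR-466k, 8 in miR-669n and 7 in miR-466j. Mir466q lies in an intron of Tnik on the same strand, Mir466i and Mir669n lie in introns of Cdk13 and Slc30a7 on the opposite strand, Mir466k overlaps an intron of Gm37240 on the opposite strand, and Mir466j overlaps no other annotated gene. miR-466q was the only one of the 5 with more than 20 counts in all libraries.

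The counts were few. Fluid libraries had 135707 to 561803 total counts and cell libraries 43087 to 960796. Serum libraries had 137638 to 2738220 and brushings 113004 to 654157. Over all 48 libraries, 46 of the 65 entries had at least 10 counts and 19 had at least 100. miR-669a-3p/miR-669o-3p, a joined 3p entry whose names match 13 genes of the array, had 4984 counts and was seen in all 48 libraries. Among these genes, Mir669a-3 also has a 3p entry of its own, miR-669a-3-3p. miR-467a-5p/miR-467b-5p followed with 967 counts, also in all 48. By number, miR-669 held 57.7% of the counts, miR-467 held 20.3%, miR-466 held 16.0% and miR-297 held 5.81%. Every level is a share of what a library held, so a change is a change against the remaining miRNAs. In these bulk samples fewer cells of a type and less RNA per cell cannot be told apart. The labels leave unsaid if equal library numbers mean a shared mouse. They give 1 mouse per library for serum and no number of mice for fluid and cells. Each p value reflects the spread among libraries alone, and in fluid and cells that spread may be technical.

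In lavage cells, the summed level of the 65 entries was higher in allergic mice, and in the other 3 compartments it was not. In cells the entries made up 0.0215% ± 0.0119 (SD, n = 7) of the counts of non-allergic libraries, with a lowest, median and highest value of 0.00771%, 0.0184% and 0.0440%. In allergic libraries they made up 0.0813% ± 0.0205 (SD, n = 7), with 0.0470%, 0.0781% and 0.112%. Every allergic library was above every non-allergic one, although the nearest pair, immunized library 2 and allergic library 5, lay close together: their exact 95% binomial intervals, which cover counting error only, were 0.0316% to 0.0597% and 0.0377% to 0.0574%. The ratio of the means was 3.78, and it was 4.10, 3.07 and 4.23 within library sets 2, 3 and 4, the 3 tables in which the counts were deposited. Without miR-669a-3p/miR-669o-3p the means were 0.0175% and 0.0647%.

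In fluid the summed level was 0.0220% ± 0.00534 (SD, n = 7) without and 0.0214% ± 0.00425 (SD, n = 7) with allergy. In serum it was 0.0594% ± 0.0293 (SD, n = 7) and 0.0621% ± 0.0284 (SD, n = 7), and in brushings 0.0277% ± 0.00271 (SD, n = 3) and 0.0289% ± 0.00846 (SD, n = 3). In each of these 3 compartments the groups overlapped and the means differed by less than the SD. These sums have no test, because the entries were chosen with earlier results known.

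**Figure D2:**
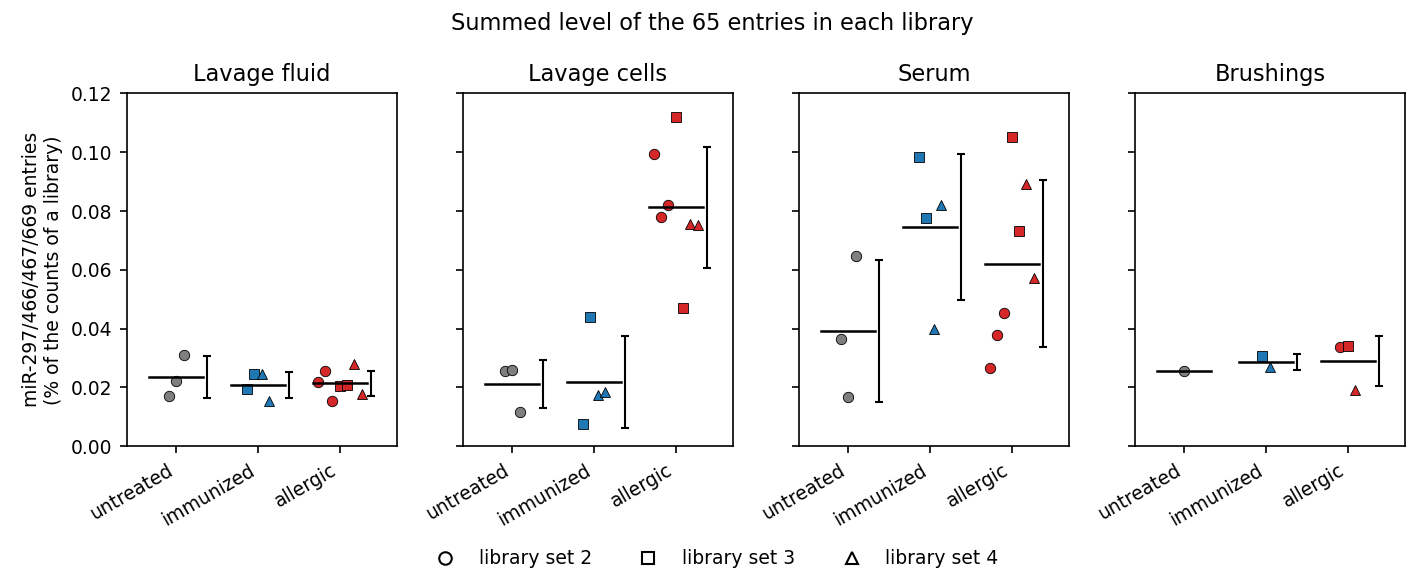
Summed level of the 65 entries in each library, in percent of the library's counts, by compartment and group. Points are libraries, shaped by library set, horizontal lines are group means and bars are ± SD. The 7 allergic cell libraries sit between 0.0470% and 0.112%, above all 7 non-allergic ones, while the groups overlap in fluid, serum and brushings.

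Most single entries had too few counts for a test in cells alone. After the filter on low counts, 2 of the 65 were tested in lavage cells, and both rose in allergic mice. Across all 217 entries tested there, 29.5% were called higher, so a share of members called cannot be told from the background with 2 members. The filter can keep an entry through the allergic pellets alone. These counts therefore describe the 2 entries kept and not the 65. A call means an adjusted p under 0.05 in the quasi-likelihood test of edgeR, adjusted by Benjamini and Hochberg's method over all entries tested. Of the 217, 64 were called higher and 58 lower, and 35 and 67 when libraries were scaled to their total counts, which moved the median log2 change of all entries from 0.04 to -0.31. Both members were called higher under either scaling.

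The level of miR-669a-3p/miR-669o-3p in non-allergic cell pellets was lowest at 5.88 counts per 1000000 counts (CPM), had a median of 32.7 CPM and was highest at 72.8 CPM. In the 7 allergic pellets it was 186, 168, 108, 238, 151, 338 and 161 CPM. Every allergic pellet was above every non-allergic one, as was the case for 22 of 217 entries tested (10.1%). The log2 change was 2.46 with an SE of 0.39 (5.51-fold, adjusted p = 0.000130 by edgeR), and the means within library sets gave log2 changes of 1.86, 2.87 and 2.87.

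miR-467a-5p/miR-467b-5p, the joined 5p entry of 11 genes of the array, had a lowest, median and highest level of 3.63, 14.6 and 142.7 CPM in non-allergic pellets. In the allergic pellets it was 203, 231, 146, 197, 73.1, 245 and 128 CPM. The groups overlapped: immunized library 2 was at 142.7 CPM from 18 counts and untreated library 2 at 80.9 CPM from 10 counts, where the lowest allergic pellet, library 5, was at 73.1 CPM. The log2 change was 2.22 with an SE of 0.60 (adjusted p = 0.00579 by edgeR), and the set means gave 2.01, 0.86 and 4.43.

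Split by control group, the cell change was seen against both. The filter can keep an entry through the pellets in which it is high, so the counts that follow describe only the 3 members kept. Against untreated mice 2 of 3 tested members rose, where 21.3% of all entries were called higher. miR-467e-5p, from a single gene of the array, rose by a log2 of 3.14 with an SE of 0.84 (adjusted p = 0.00776 by edgeR), and miR-669a-3p/miR-669o-3p rose by 1.87 with an SE of 0.56 (adjusted p = 0.0159 by edgeR). The latter call was lost without untreated library 3 (log2 1.49) or allergic library 1 (log2 1.70), and under scaling to total counts (log2 1.64). miR-467a-5p/miR-467b-5p had a log2 change of 2.07 with an SE of 0.88 and did not pass (adjusted p = 0.0723 by edgeR). Against immunized mice all 3 tested members rose, against a background of 22.1% called higher: miR-669a-3p/miR-669o-3p by a log2 of 2.94, miR-467e-5p by 2.65 and miR-467a-5p/miR-467b-5p by 2.45. The last of these lost its call, with log2 changes of 1.91 to 2.48, without immunized library 1, 3 or 4 or without allergic library 4 or 6, and it also lost it under scaling to total counts (log2 1.89).

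Pellet levels of miR-467e-5p were 0, 16.2 and 14.6 CPM in untreated mice and 0, 15.9, 13.7 and 18.1 CPM in immunized mice. In allergic mice they were 138, 106, 81.0, 128, 29.2, 113 and 37.1 CPM. All 7 allergic pellets were above all 7 others, and the 14 counts of the non-allergic pellets stood against 188 in the allergic ones. miR-467e-5p was not among the 217 entries over which such separation was counted, so no share over all entries stands beside it.

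**Figure D3:**
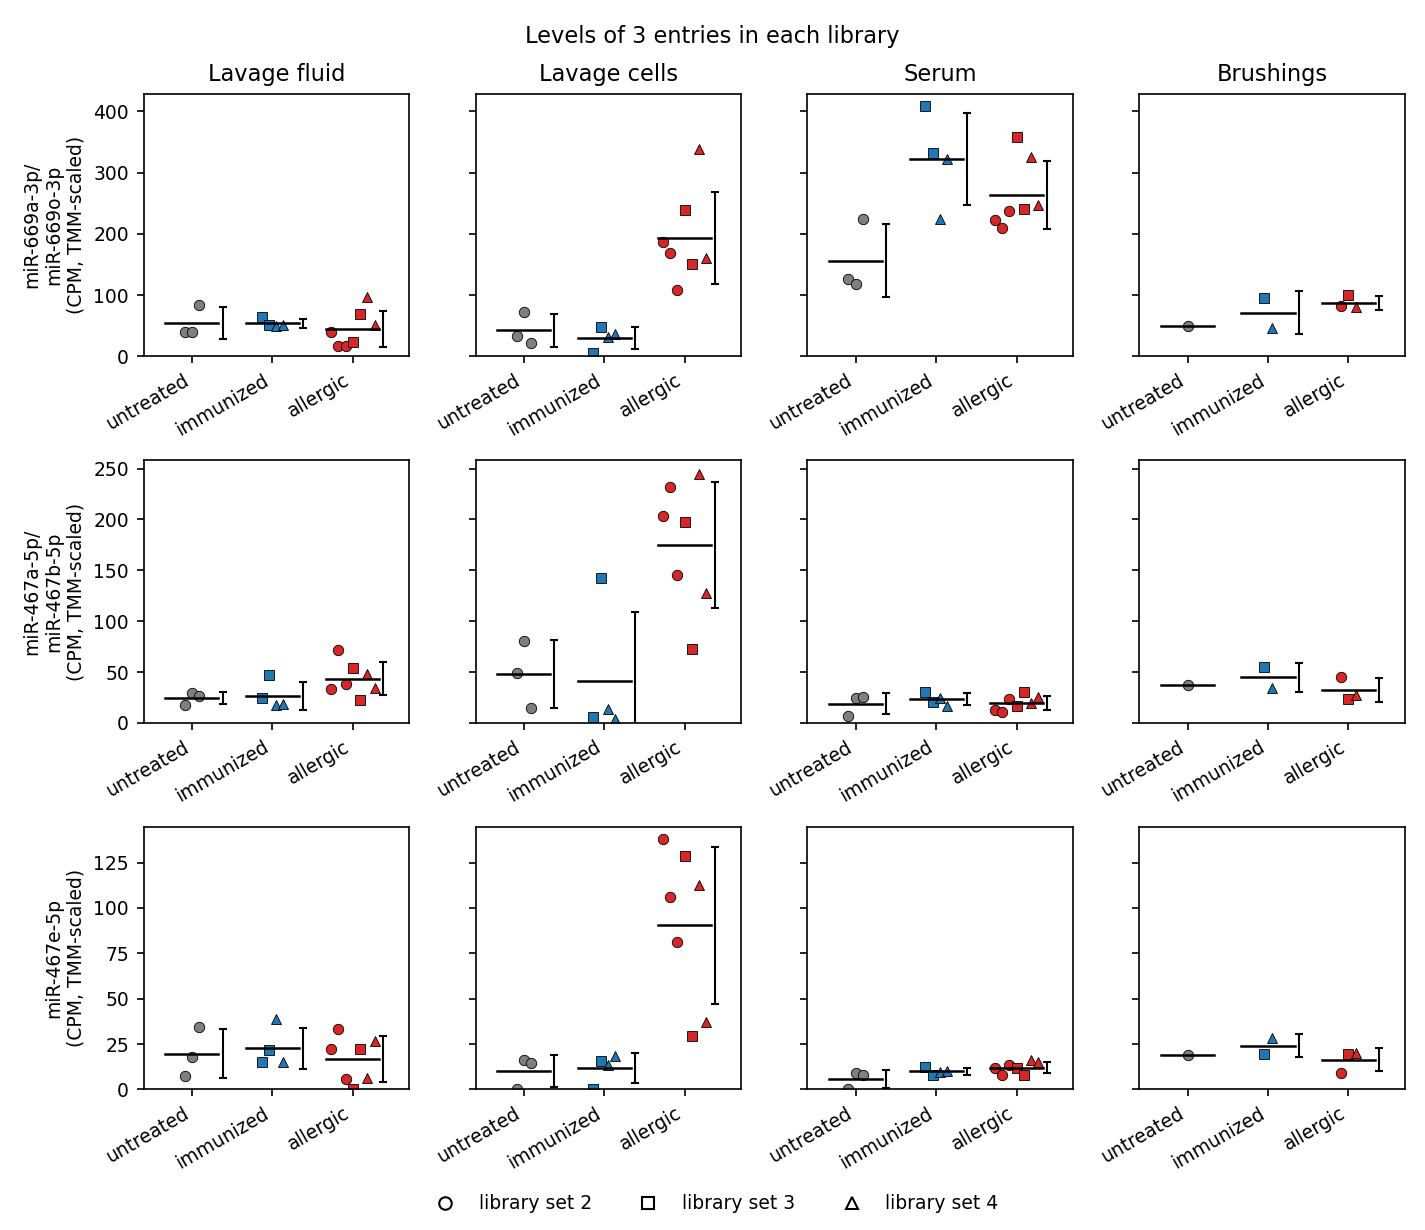
Levels of miR-669a-3p/miR-669o-3p, miR-467a-5p/miR-467b-5p and miR-467e-5p in each library, in CPM scaled within a compartment (TMM), by compartment and group. Points are libraries, shaped by library set, lines are means and bars are ± SD, cut at 0. In cell pellets the groups are apart for miR-669a-3p/miR-669o-3p and miR-467e-5p and overlap for miR-467a-5p/miR-467b-5p, where immunized pellet 2 (142.7 CPM) and untreated pellet 2 (80.9 CPM) reach into the allergic range, and the groups overlap in fluid, serum or brushings.

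Most of the less abundant entries had too few counts in pellets for a test. Of the 65, 24 had counts in both groups of pellets, 24 in allergic pellets only, 1 in non-allergic pellets only, and 16 in neither. The allergic group had 2.52 times as many total counts. The split by group was not computed over all entries, so it cannot be read as particular to the members. The mean level was lower in allergic pellets for 3 entries, picked out here after their values were seen: miR-669e-5p (2.34 and 1.17 CPM without and with allergy), miR-669f-5p (2.72 and 2.27 CPM) and miR-467d-3p (0.841 and 0 CPM), each from 6 counts or fewer in a group. 5 entries had 0 counts in all 7 non-allergic pellets and at least 10 in the allergic ones. They were picked by this pattern and can only differ upward, and its share over all entries was not computed. The bounds given for them leave out the counting error of the allergic counts. miR-466q, whose AC-rich sequence is given above, had 22 counts and was seen in 7 of 7 allergic pellets, at least 2.91-fold higher when the non-allergic group as a whole is set to 3 counts. miR-669l-5p had 20 counts in 5 of 7 pellets, at least 2.64-fold higher, and the bounds of miR-466m-5p/miR-669m-5p, miR-466f/miR-466f-5p and miR-466h-3p were 1.59, 1.45 and 1.32. Without the filter on low counts 14 of 49 members were called, all higher, where 10.8% of all entries were called higher. An entry with counts in the allergic group alone can only differ in that direction. Also without the filter, 11 were called higher against immunized mice (7.1% of all entries) and 7 against untreated mice (6.75%). limma on the deposited values per 1000000 reads (RPM), labelled as normalized with DESeq2, called 8 of 65 higher against all non-allergic mice (2.58% of all entries). Of all 1398 entries in that fit, 36 were called higher and 108 lower. The median log2 change was -0.29 for the 65 members and -0.78 over all entries.

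Entries between these extremes had a few counts per library. miR-467d-5p was at 0, 7.26 and 17.7 CPM (lowest, median and highest) in non-allergic pellets and at 19.5, 36.7 and 93.0 CPM in allergic ones, with no overlap. miR-467c-5p was at 0, 8.09 and 15.9 CPM and at 21.6, 34.1 and 55.5 CPM, also with no overlap. Neither entry was among those tested in cells alone, so no share over all entries stands beside this separation. miR-466d-3p was at 0, 0 and 15.9 CPM and at 5.40, 22.9 and 73.4 CPM, so that its groups overlapped. Overlap was also seen for the remaining abundant entries: miR-669a-5p/miR-669p-5p had medians of 9.13 and 55.2 CPM, miR-467a-3p/miR-467d-3p 7.26 and 58.6 CPM, and miR-297a-3p/miR-297b-3p/miR-297c-3p 7.26 and 20.7 CPM.

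A fit of all 48 libraries together kept 11 members after the same filter and allowed the allergic change to be compared between compartments. This split by compartment was added after the data had been seen. In cells 10 of the 11 rose (21.6% of all 399 entries were called higher), with log2 changes from 2.26 for miR-669a-5p/miR-669p-5p to 3.28 for miR-669b-5p. The eleventh, miR-297a-3p/miR-297b-3p/miR-297c-3p, had a log2 change of 1.19 with an SE of 0.70 (adjusted p = 0.167 by edgeR). miR-466d-3p lost its call without allergic pellet 6 (log2 1.54) and under scaling to total counts (log2 1.75). The median change of the 11 was 2.52, beside -0.16 over all entries tested. The filter can keep an entry through the libraries in which it is high, so these counts describe the 11 entries kept and not the 65.

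The same fit called 0 of the 11 in fluid by edgeR, where 17.0% of all entries were called. In fluid 1 of the 11 had an unadjusted p under 0.05, miR-467a-3p/miR-467d-3p with a log2 change of 1.88 and an SE of 0.73 (adjusted p = 0.0700 by edgeR), and DESeq2 called that 1. It also passed by edgeR without fluid untreated library 2, immunized library 1 or allergic library 5 or 7. In serum edgeR called 0 of the 11 (0.251% of all entries were called), 0 had an unadjusted p under 0.05, and DESeq2 called 0.

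The difference between the allergic changes of cells and fluid passed for 5 of the 11, all higher in cells, against a background of 6.77% called higher. The difference was largest for miR-669b-5p, at a log2 of 4.14 with an SE of 0.94 (adjusted p = 0.00125 by edgeR). In pellets it went from 2 counts in 1 of 7 non-allergic libraries to 51 counts in 7 of 7 allergic ones, and in fluid from a mean of 11.8 to 6.41 CPM. For miR-467e-5p the difference was 3.08 with an SE of 0.69 (adjusted p = 0.00123 by edgeR), and for miR-669a-3p/miR-669o-3p it was 2.81 with an SE of 0.48 (adjusted p = 0.000155 by edgeR).

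miR-467c-5p differed by 3.04 and the joined miR-466a-3p/miR-466b-3p/miR-466c-3p/miR-466e-3p/miR-466p-3p by 2.61, with less stable calls. The first was lost without cell immunized library 4, cell allergic library 2 or 6, or fluid allergic library 5 or 7. The second was lost without any of 12 libraries (log2 1.97 to 2.57), which were fluid untreated 2 and 3, immunized 2 and 4 and allergic 3, 5 and 7 and cell untreated 1, immunized 4 and allergic 1, 2 and 6. It was also lost under scaling to total counts and without the filter. The number of members called ranged from 3 to 8 as single libraries were left out, with 3 without cell allergic library 2 or 6, cell immunized library 4 or fluid allergic library 5 or 7, and 8 without cell allergic library 3. The other 6 did not pass, among them miR-467a-5p/miR-467b-5p with a difference of 1.58 and an SE of 0.62 (adjusted p = 0.0746 by edgeR).

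Set against serum, the cell change was larger for 10 of the 11 members, where 16.3% of all entries were called higher, with differences from a log2 of 2.12 to 3.29. The one that did not pass was miR-297a-3p/miR-297b-3p/miR-297c-3p, at 1.55 with an SE of 0.83 (adjusted p = 0.164 by edgeR). The count fell to 6 without cell allergic library 6 or serum untreated library 3. The calls of miR-466d-3p, miR-669a-5p/miR-669p-5p, miR-467a-3p/miR-467d-3p and miR-467c-5p were lost in 24, 18, 11 and 3 of 28 fits that each left out 1 library.

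**Figure D4:**
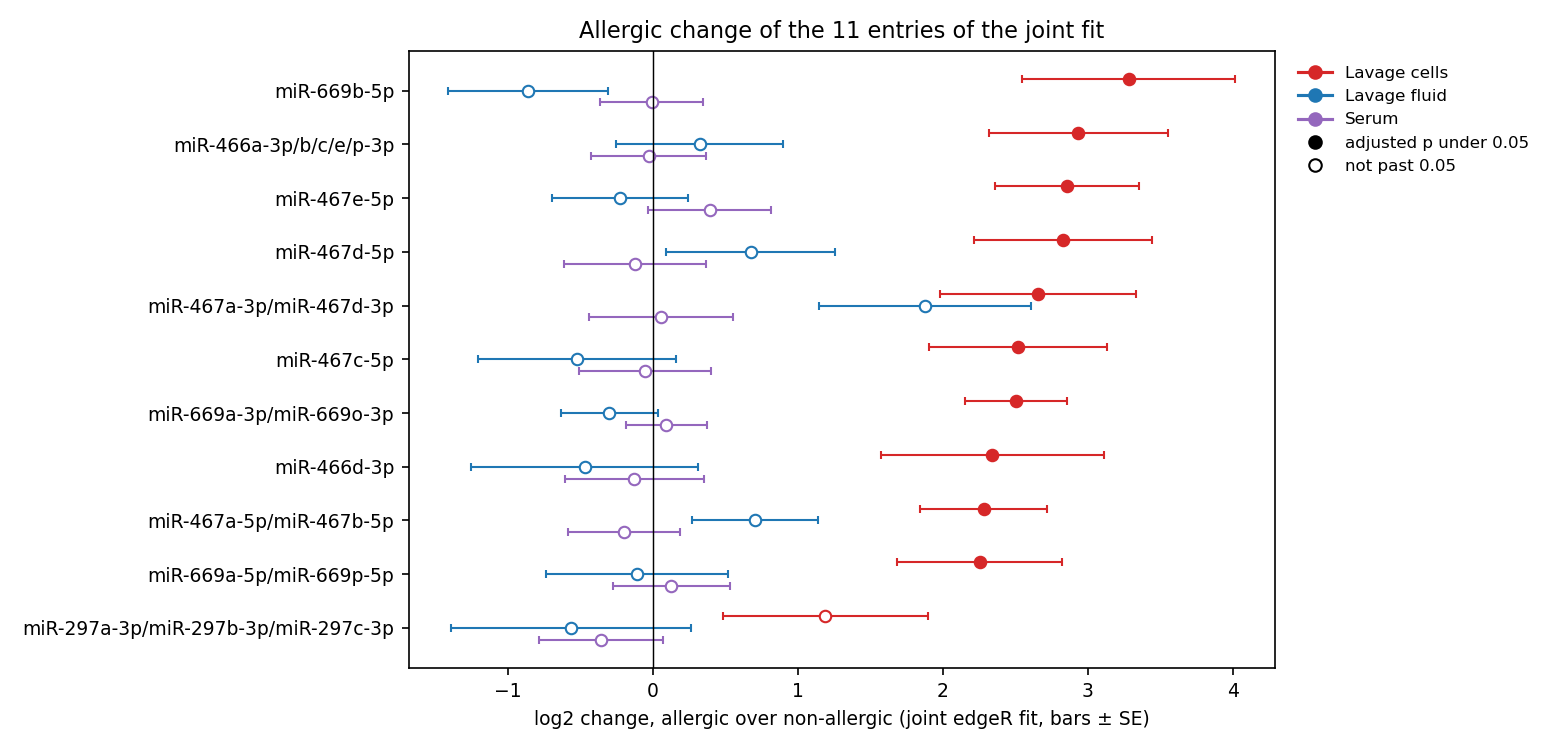
log2 change from non-allergic to allergic mice of the 11 members of the joint fit, in lavage cells, lavage fluid and serum, with bars of ± SE. Filled points passed an adjusted p under 0.05 by edgeR. In cells 10 of the 11 are filled, between 2.26 and 3.28, and in fluid and serum none is.

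Fitted by itself, lavage fluid had enough counts for miR-669a-3p/miR-669o-3p only. Its level was lowest at 39.3, had a median of 50.6 and was highest at 83.9 CPM without allergy, and 16.6, 39.3 and 96.5 CPM with it. The allergic group spanned the whole non-allergic one, and the log2 change was -0.26 with an SE of 0.35 (interval of ± 2 SE from -0.96 to 0.44, adjusted p = 0.604 by edgeR), where 33.2% of all entries were called. The set means gave log2 changes of -1.17, -0.30 and 0.55. edgeR called 0 of 1 member in fluid, with 0 at an unadjusted p under 0.05, and DESeq2 called 0. Split by control group it called 0 of 2 against untreated mice (28.2% of all entries called) and 0 of 2 against immunized mice (5.44% called), with 0 members at an unadjusted p under 0.05 and 0 by DESeq2 in each.

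In serum edgeR called 0 of 12 members tested, and 0.0% of all 347 entries. 0 members had an unadjusted p under 0.05, as did 27 of the 347 entries, and DESeq2 called 0. miR-669a-3p/miR-669o-3p lay at 117, 225 and 409 CPM (lowest, median and highest) in non-allergic serum and at 209, 241 and 358 CPM in allergic serum, with the allergic range inside the other. Its log2 change was 0.14 with an SE of 0.25 (interval of ± 2 SE from -0.35 to 0.63). The lowest p values were those of miR-467e-5p (log2 0.43, SE 0.34, adjusted p = 0.723 by edgeR), miR-466h-3p (log2 -0.34, SE 0.40, adjusted p = 0.793 by edgeR) and miR-297a-3p/miR-297b-3p/miR-297c-3p (log2 -0.32, SE 0.38, adjusted p = 0.793 by edgeR), none of which passed.

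In brushings edgeR called 0 of 2 members, where 2.94% of all 306 entries were called, with 0 members at an unadjusted p under 0.05 and 0 by DESeq2. miR-669a-3p/miR-669o-3p was at 50.3, 95.8 and 46.6 CPM in the 3 non-allergic and at 81.4, 101 and 80.5 CPM in the 3 allergic libraries, so the groups overlapped. Its log2 change was 0.48 with an SE of 0.32 (adjusted p = 0.779 by edgeR), and that of miR-467a-5p/miR-467b-5p was -0.53 with an SE of 0.49 (adjusted p = 0.840 by edgeR). With 3 libraries a side, the intervals of ± 2 SE reached from -0.16 to 1.11 and from -1.51 to 0.44.

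Between compartments, both arms of miR-669a were higher in serum than in cells or fluid without allergy, and with allergy most tested members were higher in cells than in fluid and brushings. In non-allergic mice 3 members were tested in a fit of all 4 compartments. miR-669a-3p/miR-669o-3p was lower in cells than in serum by a log2 of -3.27 with an SE of 0.39 (adjusted p = 4.66e-08 by edgeR) and lower in fluid than in serum by -2.88 with an SE of 0.35 (adjusted p = 3.41e-08 by edgeR). miR-669a-5p/miR-669p-5p, the other arm, was lower in cells by -1.89 and in fluid by -2.48. This made 2 of 3 members lower in cells (39.9% of all entries) and 2 of 3 lower in fluid (41.6% of all entries). Under scaling to total counts the cell difference of miR-669a-5p/miR-669p-5p was -1.37 and no longer passed. miR-467a-5p/miR-467b-5p passed in neither, with a log2 difference of 0.22 between cells and serum (SE 0.49) and -0.56 between fluid and serum (SE 0.45). Without the filter, 13 members were lower in cells than in serum (18.5% of all entries), 18 were lower in fluid than in serum (20.5%) and 1 was lower in cells than in fluid (13.4%).

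Between the 3 lung compartments of non-allergic mice edgeR called 0 of 3 members in each pair, with 0 at an unadjusted p under 0.05 and 0 by DESeq2. The shares of all entries called were 68.3% between cells and fluid, 62.1% between cells and brushings, and 11.2% between fluid and brushings. For miR-669a-3p/miR-669o-3p the intervals of ± 2 SE were -1.20 to 0.43 for cells over fluid and -1.55 to 0.38 for cells over brushings.

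In allergic mice 12 of 12 tested members were higher in cells than in fluid, where 32.3% of all entries were called higher. The differences ran from a log2 of 1.56 for miR-669c-5p to 2.80 for miR-467c-5p, with a median of 2.13 beside -0.27 over all entries. An entry can pass the filter through the compartment in which it is high, so these counts describe the 12 entries kept. Against brushings 9 of 12 were higher in cells (33.3% of all entries), led by miR-467a-3p/miR-467d-3p with 3.33 and miR-669c-5p with 2.65. That count was 4 without brushings allergic library 3. Without brushings allergic library 2, miR-669c-5p had a log2 difference of 1.62 and the joined 5-name miR-466 3p entry 1.33, and neither passed. Against serum 6 of 12 were higher in cells (33.1% of all entries) and 1 was lower (33.9% of all entries). The 6 were 5 miR-467 entries, with log2 differences from 1.47 to 2.81, and the joined 5-name miR-466 3p entry with 1.02, which lost its call without cell allergic library 2 or serum allergic library 1 or 7 (log2 0.78 to 0.89). Without the filter, 22 members were higher in cells than in fluid (11.9% of all entries), and against serum 9 were higher (10%) and 3 lower (17.2%). The member that was lower than in serum in the filtered fit was miR-669a-3p/miR-669o-3p, at -0.77 with an SE of 0.25 (adjusted p = 0.00843 by edgeR).

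The make-up of the counts by number also set serum apart, as a description with no test. miR-669 entries held 66.3% of the members' counts in non-allergic and 65.4% in allergic serum, against 35.4% to 50.7% in the other groups. miR-467 entries held 11.6% and 11.3% in serum, with single libraries from 4.17% to 15.4%. In fluid, cells and brushings single libraries held 23.4% to 60.0%. miR-669a-3p/miR-669o-3p alone made up 49.2% and 46.3% of the members' counts in serum.

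In cells the make-up by number was alike with and without allergy while the summed level differed. miR-669 held 38.6% of the members' counts in non-allergic and 35.4% in allergic pellets, and miR-467 held 41.3% and 44.3%, from 189 and 1989 counts. In brushings the make-up differed. miR-467 held 39.1% to 41.3% in the 3 non-allergic and 23.4% to 29.8% in the 3 allergic libraries, and miR-669 held 40.6% to 42.6% and 48.8% to 52.6%, with no overlap in either. Those shares rest on 419 and 306 counts. In fluid miR-669 held 47.8% without and 37.6% with allergy, and miR-467 held 35.2% and 41.0%. Single fluid libraries overlapped between the groups for both numbers.

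**Figure D5:**
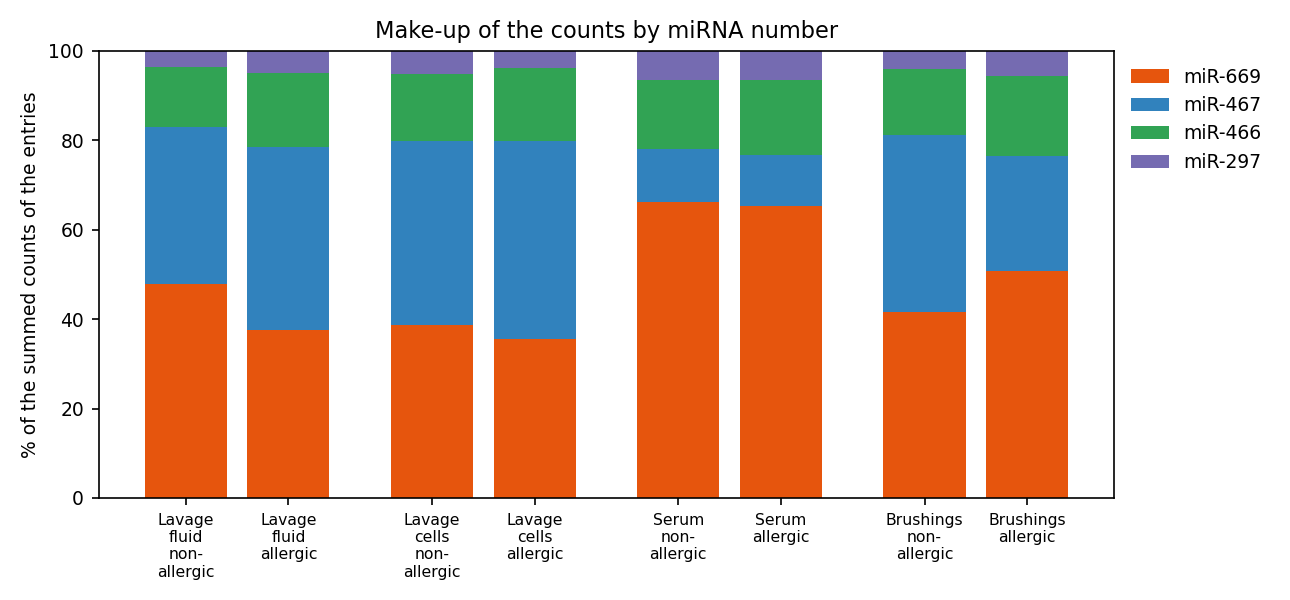
Share of the members' summed counts held by each number, in percent, in each compartment with and without allergy. Bars are sums over the libraries of a group, with the 1 entry that joins miR-466 and miR-669 counted under miR-466. Serum bars are mostly miR-669, at 66.3% and 65.4%, and the lung compartments hold larger miR-467 parts.

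Several other measures moved with the allergic pellets, and their part in the result was not tested. Total counts were 43087 to 207008 in non-allergic and 184529 to 960796 in allergic pellets. Of all 217 entries tested in pellets, 64 were called higher and 58 lower, which is the background of the marker calls that follow. The 5 hematopoietic markers, among them the myeloid miR-223-3p and the lymphoid miR-150-5p, held 3.45% to 7.80% of the counts in non-allergic and 10.5% to 33.8% in allergic pellets, with 5 of 5 called higher. The 5 airway epithelial markers of the miR-200 family and miR-205-5p held 1.41% to 3.22% and 0.266% to 1.07%, with 5 of 5 called lower, and the 4 multiciliated markers of miR-34 and miR-449 held 0.321% to 1.10% and 0.0580% to 0.235%, with 3 of 4 called lower. The 3 erythroid entries held 8.13% to 50.7% and 5.49% to 50.4%, with 0 of 3 called by edgeR. No marker of these 4 lists was at 0 in either group. With the erythroid miR-451a taken out of the totals the summed member level was 0.0277% ± 0.0145 (SD, n = 7) and 0.106% ± 0.0314 (SD, n = 7), still with no overlap.

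The same hematopoietic markers also rose in allergic fluid, from 0.298% to 0.629% of the counts to 0.748% to 3.32%. Of these markers 5 of 5 were called higher, beside 48 of all 253 entries tested in fluid. Against untreated mice 5 of 5 were called higher, beside 48 of 294 entries. Against immunized mice 2 of 5 were, beside 13 of 294 entries. The members' summed level in fluid was 0.0220% without and 0.0214% with allergy. From another imprinted miRNA array, the Dlk1-Dio3 cluster, a list of 19 entries was taken and not the whole cluster. These 19 had 48 counts in non-allergic and 9 in allergic pellets. In the joint fit 0 of the 17 listed entries tested rose in cells and 3 fell, where 84 of all 399 entries were called lower. The median log2 change of the 17 was -2.71. From a list for the embryonic stem cell clusters miR-290 and miR-302, the 9 entries measured here had 0 counts in all 14 pellets.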

How the data were processed

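Per the labels' protocols, small RNA libraries took 20 to 65 ng of RNA, and the 3′ adapter carried 5 random bases. The submitters' processing notes name cutadapt, DESeq2 and mm10. They name no aligner. The authors deposited 3 tables of expected counts per miRNA entry, in which reads shared by names can be split. They also deposited a table of RPM, reads per 1000000 reads, labelled as normalized with DESeq2. Of the members' values above 0, 23.1% were not whole, so expected counts were rounded before testing. An entry absent from a table was taken as 0. The members and the gene lists were chosen with earlier results of these data known.

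Counts were tested with edgeR 4.0.16 in R 4.3.3 (quasi-likelihood test, TMM scaling, filterByExpr with a minimum count of 10), with adjusted p over all entries tested and a threshold of 0.05. Each table is a library set. Untreated libraries are all in set 2 and immunized ones in sets 3 and 4, and allergic ones are in all 3, so the set was a term in each fit. Alternatives were DESeq2 1.42.0 (size factors and test), scaling to total counts, no filter, no set term, a replicate block, each library left out, and limma 3.58.1 on log2(RPM + 1) of the deposited values. Entries named are those called in a comparison of allergic and non-allergic mice, the 5 most abundant of each compartment, and the 3 with the lowest p where none was called. 39 hairpin entries of the same numbers (103 counts) were left out. The code was tested on simulated data.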

Additional observations from a re-analysis of the deposited data

Results flagged for a closer look

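Of 24 groups of values from 4 to 7 libraries examined for a library far from the rest, 2 held one. Chance gives one in about 1 in 20 such groups. In immunized fluid, library 1 had 63.9 CPM of miR-669a-3p/miR-669o-3p, above the other 3. In immunized cell pellets, library 2 had 142.7 CPM of miR-467a-5p/miR-467b-5p, where the other 3 lay between 3.63 and 13.7 CPM.

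The allergic change in cells differed from that in fluid by the interaction test for 5 entries. The log2 differences were 4.14 for miR-669b-5p, 3.08 for miR-467e-5p, 3.04 for miR-467c-5p, 2.81 for miR-669a-3p/miR-669o-3p and 2.61 for miR-466a-3p/miR-466b-3p/miR-466c-3p/miR-466e-3p/miR-466p-3p. It differed from that in serum for 10 entries. The log2 differences were 3.29 for miR-669b-5p, 2.96 for the joined 5-name miR-466 3p entry, 2.95 for miR-467d-5p and 2.60 for miR-467a-3p/miR-467d-3p. They were 2.58 for miR-467c-5p, 2.48 for miR-467a-5p/miR-467b-5p, 2.47 for miR-466d-3p and 2.46 for miR-467e-5p. For miR-669a-3p/miR-669o-3p and miR-669a-5p/miR-669p-5p they were 2.41 and 2.12.

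Hairpin entries of the same numbers, outside the mature counts, held 8.45 counts in allergic and 0.4 in non-allergic cells, or 3.41 and 0.408 per 1000000. In serum they held 52.2 and 35.9 counts, or 5.78 and 5.17 per 1000000. In brushings they held 3.13 and 0.833 counts, or 2.87 and 0.553 per 1000000.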

How the results depend on the processing

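No called member changed direction. A count of members called was taken to hold within 1.5 times the reported count. The log2 ratio of a summed level was taken to hold within 1 SD of the libraries. By these rules 450 alternative values held and 28 moved further. Of values for single entries, 1302 kept their side of the threshold and 108 lost it. Without the filter on low counts, the cell comparisons called 14 members (against all non-allergic mice), 11 (against immunized) and 7 (against untreated). In allergic mice it called 22 between cells and fluid and 12 between cells and serum, and without allergy 1 between cells and fluid, 13 between cells and serum and 18 between fluid and serum. limma on deposited RPM called 8 of 65 in cells. Scaling to total counts called 1 member against untreated mice and 1 between cells and serum without allergy, and the DESeq2 test called 1 in fluid in the joint fit. As single libraries were left out, members called ranged from 3 to 8 for cells minus fluid, 6 to 10 for cells minus serum, 4 to 10 for allergic cells against brushings, 1 to 3 against untreated mice and 0 to 1 in fluid in the joint fit.

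The split of higher and lower calls moved under scaling to total counts from 57 and 42 to 23 and 56 (cells against immunized), 55 and 47 to 30 and 44 (against untreated), 86 and 84 to 52 and 119 (joint fit, cells), 27 and 41 to 15 and 39 (cells minus fluid), 65 and 50 to 36 and 73 (cells minus serum), 100 and 142 to 131 and 102 (cells against serum without allergy) and 126 and 148 to 163 and 105 (fluid against serum).

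The labels do not say that library numbers pair samples, and the correlations did not meet the limit for pairing. Those of deviations between cells and fluid ran from 0.0026 to 0.293, with 9 of 14 over 0.1. In sets 3 and 4 the 2 libraries of a group have the same value, so the 14 values are not all separate. With the replicate block, the comparison of cells with immunized mice called 0 of 3 members and 0 of 258 entries, with log2 changes of 4.03 for miR-669a-3p/miR-669o-3p, 4.13 for miR-467e-5p and 4.52 for miR-467a-5p/miR-467b-5p against 2.94, 2.65 and 2.45 without it. Allergic cells against brushings called 7 of 12 members, and serum called 21 of 347 entries and 0 members. Brushings have 1 allergic and 1 non-allergic library in each set, so the set term already matches them. No paired analysis was possible there with a further replicate block because it leaves no residual degrees of freedom. The cause of these shifts was not tested. Depth limits the cell comparisons, with 189 member counts over the 7 non-allergic pellets.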
